A study of Homo sapiens with 10 samples.

Results

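The 306 Smad4 peaks described here were called in TTF-1-depleted H441 cells at positions with no Smad3 peak in the same cell line. They were chosen from the list of 1605 Smad4 siTTF-1 peaks as those sharing not 1 base with a Smad3 siTTF-1 peak or a Smad3 siControl peak. They make up 19.1% of that list (exact Clopper-Pearson 95% interval 17.2 to 21.1). The other 1299 Smad4 peaks overlapped Smad3, 902 of them in both lists, 390 in the siTTF-1 list alone and 7 in the siControl list alone. Since the absence of Smad3 chose the members, it is a description and not a result.

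Smad4 is the common partner of the receptor-activated Smads. After TGF-β binds its receptors, Smad3 is phosphorylated, joins Smad4 and enters the nucleus, where the complex binds DNA together with other transcription factors. Smad4 also pairs with the Smads of bone morphogenetic protein signalling, so it can be found on DNA without Smad3. TTF-1, also named NKX2-1, is a homeodomain transcription factor of lung epithelium. In sequencing of immunoprecipitated DNA, repeats and the flanks of centromeres are known places of false peaks.

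The lists come from chromatin immunoprecipitation with sequencing in 2 human lung adenocarcinoma cell lines, with 1 library per condition. In H441, which expresses TTF-1, the libraries were Smad4 and Smad3 after an siRNA against TTF-1 (siTTF-1), Smad4 and Smad3 after a control siRNA (siControl), and TTF-1 at 1.5 h and 0 h, for which the titles name no siRNA. In A549, labelled negative for TTF-1, Smad3 was mapped. The labels give all cells 1 ng/ml TGF-β3 for 1.5 h, also the library titled 0 h. Per the labels, the peak calling against input DNA allowed a false discovery rate of 10% for Smad4, 5% for A549 Smad3 and 1% for the other lists.

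The compared lists held 14145 Smad3 siTTF-1 peaks, 8941 Smad3 siControl peaks, 31083 TTF-1 peaks at 0 h, 21291 TTF-1 peaks at 1.5 h and 2535 A549 Smad3 peaks. The Smad4 siControl list held 1 peak, which none of the 306 members met, so none has a second Smad4 library that shows it. A limit of 10% on 1605 peaks corresponds to 160.5 peaks, but which peaks these would be is not known. No reads were used, so library depth is unknown, and Smad3 signal below the 1% limit cannot be seen in the lists. Peaks are not replicates: all intervals and tests below compare peaks of these libraries and cover counting error only. Positions are on hg18, counted from 1, and carry no gene names or repeat classes, because no annotation or genome of hg18 was used.

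Smad4 peaks without Smad3 stood late in the Smad4 list. Each list numbers its peaks from 1, and neither labels nor files say what the number means. The members had a median peak number of 1212.5 (quartiles 895.25 and 1428.75), and the Smad4 peaks with Smad3 a median of 699 (335.5 and 1100.5). Only 1 member was among the first 100 Smad4 peaks, against 99 peaks with Smad3. Of the 306 members, 63 (20.6%, 16.2 to 25.6) lay among the first 802 numbers, where by construction 50% of all Smad4 peaks lie, against 739 (56.9%, 54.1 to 59.6) of the 1299 peaks with Smad3. The odds ratio was 0.196 (Woolf 95% interval 0.146 to 0.265, Fisher's exact test, two-sided, Benjamini-Hochberg adjusted over 8 comparisons, p = 3.33e-31). Within 5 strata of peak width the ratio was 0.367 (Mantel-Haenszel, 0.264 to 0.509).

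The share of Smad4 peaks without Smad3 grew steadily along the list. In 5 equal strata of peak number, 9 of 321 peaks in the first stratum had no Smad3 (2.80%, 1.29 to 5.26). In the second stratum 31 peaks had none (9.66%), in the third 53 (16.5%) and in the fourth 79 (24.6%). In the last stratum, numbers 1285 to 1605, 134 of 321 peaks had none (41.7%, 36.3 to 47.4). Even there, peaks with Smad3 were the larger class, with 187 peaks.

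**Figure D1:**
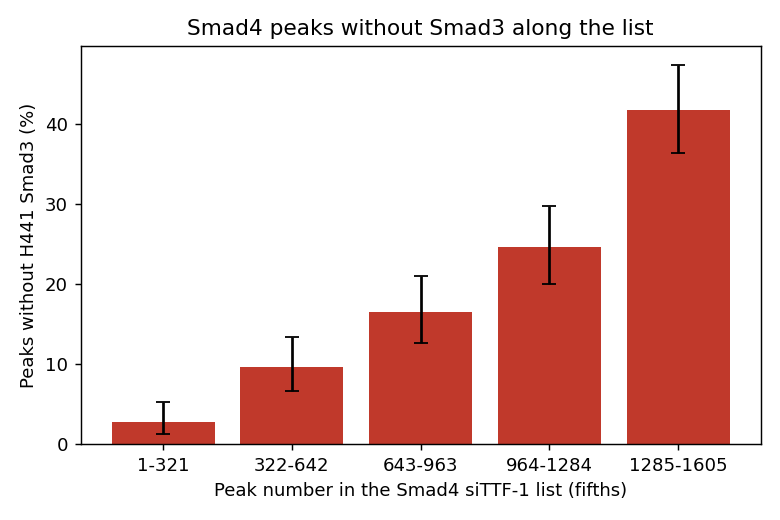
Share of Smad4 siTTF-1 peaks without an H441 Smad3 peak (y axis, percent) in 5 equal strata of the peak number (x axis); error bars are exact 95% binomial intervals. The share is 2.80% in the first stratum and 41.7% in the last, with each stratum above the one before.

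The first members by peak number (5 are given) met no TTF-1 or A549 peak, as was so for 270 of all 306 members. Some of the 5 lay near Smad3. Number 67 (chromosome 15, 37542101 to 37542549) was 449 bp wide and lay 32.1 kb from the nearest Smad3 peak. Number 145 (chromosome 15, 42295101 to 42295399) lay 57.1 kb from Smad3, and number 148 (chromosome 7, 75334351 to 75334649) lay 84.1 kb from it. Number 193 (chromosome 14, 100526101 to 100526349) and number 203 (chromosome 8, 26027551 to 26027799) were close to a Smad3 peak, at 1551 bp and 2601 bp.

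The members were also narrow. Their median width was 249 bp, with quartiles of 199 and 249 bp and a range of 149 to 449 bp. Smad4 peaks with Smad3 had a median of 299 bp, quartiles of 249 and 399 bp and a range of 99 to 949 bp. No member was 499 bp wide or more, and 145 of the peaks with Smad3 were. The greatest width among members, 449 bp, was reached by 7 peaks. A width above 299 bp, the median of the whole list, was found in 29 members (9.48%, 6.44 to 13.3) and in 581 peaks with Smad3 (44.7%, 42.0 to 47.5), with 38.0% of all Smad4 peaks as background. With a two-sided Fisher's exact test, the odds ratio came to 0.129 (0.087 to 0.193, adjusted p = 2.08e-34).

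Width and peak number were related, and the smaller width of the members was also seen within strata of peak number. Across peaks, Spearman's correlation of width with number was -0.39 over the 306 members and -0.49 over the 1299 peaks with Smad3, a description within 1 library. Within 5 strata of peak number the odds ratio of a width above 299 bp was 0.237 (Mantel-Haenszel, 0.157 to 0.358). In the last stratum the median width was 199 bp for members and 249 bp for peaks with Smad3. In the first it was 299 bp for the 9 members and 399 bp for the 312 peaks with Smad3.

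**Figure D2:**
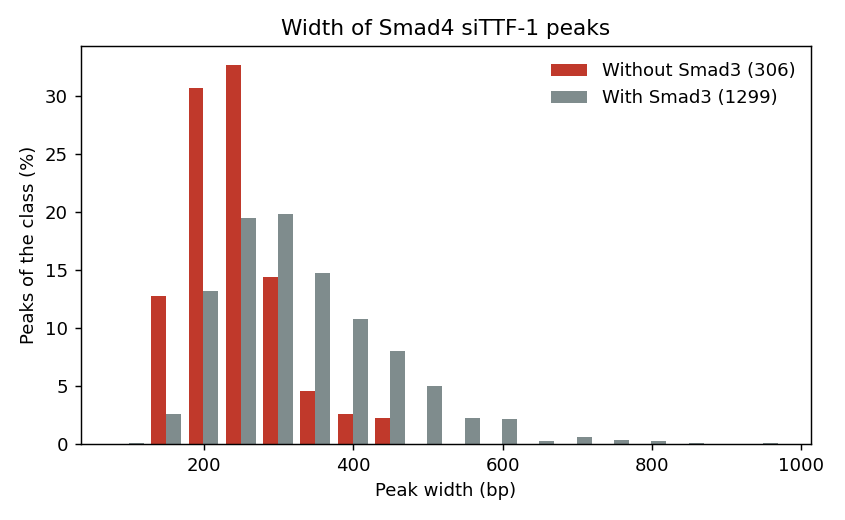
Widths of Smad4 siTTF-1 peaks (x axis, bp, in steps of 50 bp) as a percentage of each class (y axis), for the 306 peaks without Smad3 and the 1299 with Smad3. The members lie between 149 and 449 bp with a median of 249 bp, and only the class with Smad3 extends to 949 bp.

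The 3 widest members with the lowest numbers differed in what surrounded them. Number 67 has been described above. Number 225 (chromosome 12, 20595451 to 20595899) met peaks of both TTF-1 lists and of A549, and lay 58.5 kb from the nearest H441 Smad3 peak. Number 524 (chromosome 9, 46986151 to 46986599) lay in a long peak-free region of chromosome 9. The other 4 members of 449 bp, with numbers 577 to 1137, overlapped no peak of the TTF-1 or A549 lists, like 270 of all 306 members.

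Few members overlapped a site of the other factors. TTF-1 0 h peaks were met by 22 members (7.19%, 4.56 to 10.7), by 87 of the 390 Smad4 peaks with Smad3 in siTTF-1 cells alone (22.3%, 18.3 to 26.8) and by 685 of the 902 with Smad3 in both conditions (75.9%, 73.0 to 78.7). Among all Smad4 peaks the share was 49.8%. TTF-1 1.5 h peaks were met by 15 members (4.90%, 2.77 to 7.96), where the share of all Smad4 peaks was 47.1%. The odds ratio of members against all peaks with Smad3 was 0.052 (0.033 to 0.081, adjusted p = 8.99e-70) at 0 h and 0.039 (0.023 to 0.066, adjusted p = 2.97e-71) at 1.5 h, by Fisher's exact test (two-sided). Neither TTF-1 list was used to choose the members, but both come from the cell line of the Smad3 lists. Smad4 peaks with Smad3 often met TTF-1 there, so the lower shares of members follow in part from the choice. The 0 h shares were also known before this comparison was chosen.

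The choice of members did not use the A549 Smad3 list but is not independent of it. Only 1038 of the 2535 A549 peaks had no H441 Smad3 peak, and every A549 peak that a member met was among these. A lower share among members thus follows in part from the choice. A549 Smad3 peaks gave the same order of classes. They were met by 16 members (5.23%, 3.02 to 8.35), by 59 of the 390 peaks with Smad3 in siTTF-1 cells alone (15.1%, 11.7 to 19.1) and by 345 of the 902 with Smad3 in both conditions (38.2%, 35.1 to 41.5). The share of all Smad4 peaks was 26.3%. Against all peaks with Smad3 the odds ratio was 0.121 (0.072 to 0.203, exact test, adjusted p = 3.47e-25). Against the 390 peaks with Smad3 in siTTF-1 cells alone, the class most like the members, the odds ratio was 0.310 for A549 (0.174 to 0.550, adjusted p = 3.51e-05) and 0.270 for TTF-1 0 h (0.164 to 0.443, adjusted p = 7.35e-08), by the same exact test.

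Positions beside the members met these lists at lower shares still. When the same 306 peaks were moved by 25 kb to either side, 5 of 612 positions (0.82%) met a TTF-1 0 h peak, 4 (0.65%) a TTF-1 1.5 h peak and 2 (0.33%) an A549 peak. These background shares lie below the lower interval bounds of the members, which are 4.56%, 2.77% and 3.02%. No test was made of this difference. The corresponding shares of moved peaks with Smad3 were 2.42%, 1.81% and 0.23%.

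**Figure D3:**
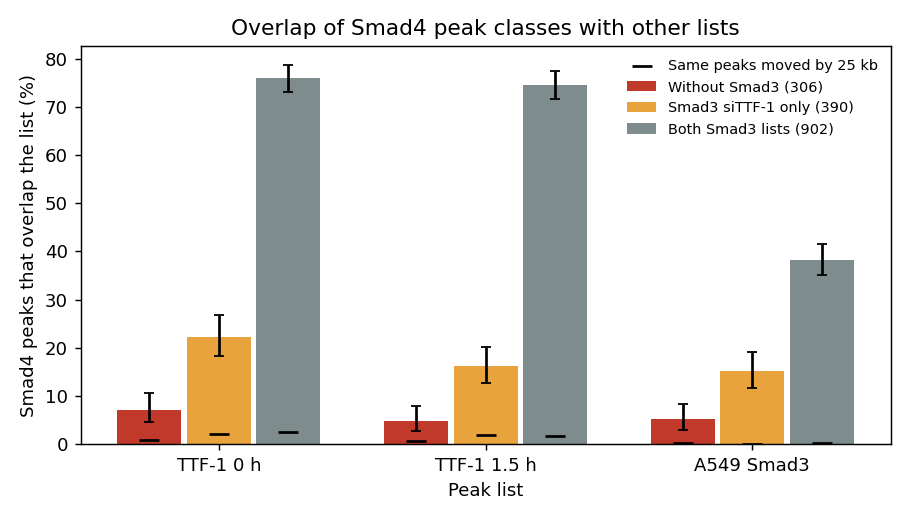
Share of Smad4 siTTF-1 peaks (y axis, percent) that overlap the TTF-1 0 h, TTF-1 1.5 h and A549 Smad3 lists, for peaks without Smad3, with Smad3 in siTTF-1 cells alone and with Smad3 in both conditions; error bars are exact 95% binomial intervals and black dashes mark the same peaks moved by 25 kb. The members have the lowest share for each list, between 4.90% and 7.19%, and lie above their dashes.

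In all, 270 members met none of the 3 lists and 36 met at least 1. Of these 36, 23 met a TTF-1 list, 14 of them at both times, 8 at 0 h and not at 1.5 h, and 1 at 1.5 h and not at 0 h. The 16 members with an A549 peak were mostly other ones: 13 of them met no TTF-1 list and 3 did. Seen from A549, the 16 are 1.54% of the 1038 A549 Smad3 peaks without H441 Smad3, and 5.23% of the members.

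The members that met A549 peaks were found along the whole Smad4 list, at numbers 225 to 1591. Their share of the members was 11.1% in the first stratum of peak number (1 of 9), 9.68% in the second, 7.55% in the third, 5.06% in the fourth and 2.99% in the last (4 of 134). Smad4 peaks with Smad3 had shares of 46.2%, 31.0%, 25.4%, 22.7% and 26.2% in the same strata, above the members in each. Within the 5 strata the odds ratio was 0.164 (Mantel-Haenszel, 0.097 to 0.276). The A549 peaks they met ranged from number 66 to number 2380 of 2535, with a median of 995.5, against a median of 882 for those met by peaks with Smad3. The highest placed were A549 number 66, at Smad4 number 959 (chromosome 6, 117868951 to 117869149), and A549 number 375, at Smad4 number 1104 (chromosome 16, 51672051 to 51672399). A second such member, Smad4 number 1406 (chromosome 6, 117949851 to 117950049), lay 80.7 kb from the first.

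Only 2 members met both TTF-1 lists and the A549 list. The first is number 225 on chromosome 12, at TTF-1 0 h number 21077, TTF-1 1.5 h number 16630 and A549 number 554. The second is number 1591 (chromosome 2, 189859251 to 189859499), 249 bp wide and 106.9 kb from the nearest H441 Smad3 peak. It stood near the end of the Smad4 list but met TTF-1 0 h number 4285 and TTF-1 1.5 h number 3868, the lowest TTF-1 numbers met by any member, and A549 number 2015. Among the TTF-1 0 h peaks met by members the median number was 14021.5 of 31083, and 9954 among those met by peaks with Smad3.

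Smad3 was not close to most members. The nearest H441 Smad3 peak lay at a median of 57.1 kb, edge to edge (quartiles 17.1 and 132.9 kb). It was within 1 kb of 11 members (3.59%), within 10 kb of 62 (20.3%) and within 100 kb of 200 (65.4%). Moved by 25 kb to either side, the same peaks had a median distance of 56.3 kb, with 1.31% within 1 kb, 15.2% within 10 kb and 65.8% within 100 kb. The medians were thus close, while up to 10 kb the members had the higher shares, although moved positions may overlap Smad3 and members may not. This difference was not tested. Smad4 peaks with Smad3 lay at a median of 9.7 kb from the next Smad3 peak that they did not overlap, and the 390 with Smad3 in siTTF-1 cells alone at 22.7 kb.

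**Figure D4:**
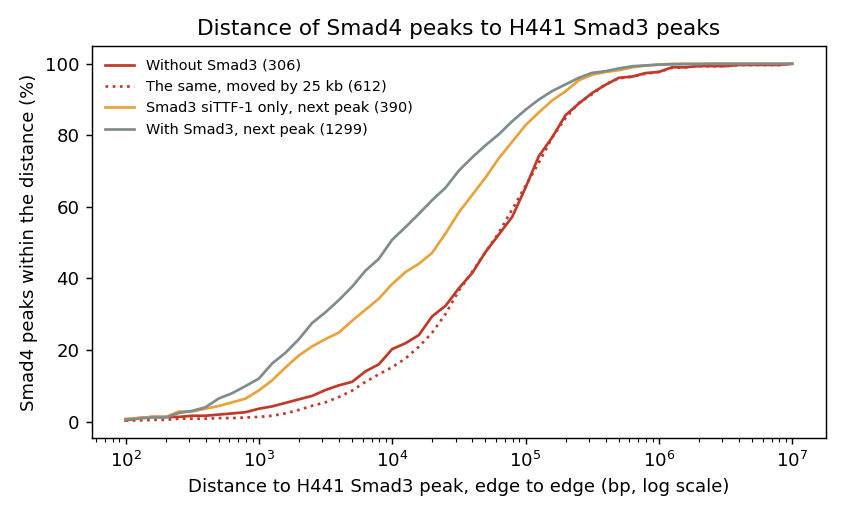
Cumulative share of Smad4 siTTF-1 peaks (y axis, percent) by the edge-to-edge distance to an H441 Smad3 peak (x axis, bp, log scale): the members, the members moved by 25 kb, and, for peaks with Smad3, the next Smad3 peak that they do not overlap. The curve of members lies above that of moved members at 1 kb (3.59% against 1.31%) and at 10 kb (20.3% against 15.2%) and meets it near the medians of 57.1 and 56.3 kb, while peaks with Smad3 reach their median at 9.7 kb.

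The nearest Smad3 peak was from the siTTF-1 list, the longer one, for 218 members. The siControl peak was nearer for 51, and the distance was equal for 36. Any difference in bases counted, and for some members it was as small as 50 bp. Number 759 on chromosome 2, for instance, lay 109951 bp from a siTTF-1 peak and 110001 bp from a siControl peak. Such counts were not made for other Smad4 peaks or for moved positions. On chromosome Y, the chromosome of 1 member, there was no siControl Smad3 peak.

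Around the choice of 1 shared base, the members just inside it were 3 peaks beside a Smad3 peak. Number 1361 (chromosome 4, 140038251 to 140038449) was 1 bp from a Smad3 peak, which is the smallest gap that positions in steps of 50 bp allow. Number 693 (chromosome 1, 81942251 to 81942499) and number 1515 (chromosome 7, 90046201 to 90046349) were 101 bp from one. Just outside stood 7 Smad4 peaks with the smallest overlap, 49 bp, of which the first by number were 288 (chromosome 16, 70198851 to 70199099), 464 (chromosome 6, 72171051 to 72171249) and 605 (chromosome 4, 161514501 to 161514749). Such cases were few: 1179 of the 1299 peaks with Smad3 (90.8%) lay wholly inside a Smad3 peak.

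At the other end, 7 members lay over 1 Mb from any H441 Smad3 peak. All 7 met none of the TTF-1 and A549 lists, but so did 270 of all 306 members. The farthest were number 524 on chromosome 9, at 8312.9 kb, number 881 (chromosome 9, 66982901 to 66983149), at 3930.9 kb, and number 940 (chromosome 10, 46513401 to 46513599), at 1867.5 kb. The remaining 4 lay on chromosomes 1, 4 and 8 at 1069.8 to 1235.6 kb, with peak numbers 966 to 1574.

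The members less often had a TTF-1 0 h peak in their surroundings. A TTF-1 0 h peak lay within 100 kb of 240 members (78.4%, 73.4 to 82.9) and of 1233 peaks with Smad3 (94.9%, 93.6 to 96.0), against 91.8% of all Smad4 peaks. With a two-sided Fisher's exact test, the odds ratio came to 0.195 (0.135 to 0.281, adjusted p = 4.12e-17). This counts TTF-1 peaks that overlap the Smad4 peak itself, and so repeats in part the overlap given above. With those left out, a setting added once the values were known, the ratio was 0.314 (0.224 to 0.439). Against the 390 peaks with Smad3 in siTTF-1 cells alone, of which 344 (88.2%, 84.6 to 91.2) had a TTF-1 0 h peak within 100 kb, it was 0.486 (0.322 to 0.733), and among the first 802 Smad4 peaks 0.362 (0.167 to 0.782). The number of TTF-1 0 h peaks within 100 kb, without overlapping ones, had a median of 3 (quartiles 1 and 5) for members, the same median of 3 (1 and 5) for the 390 peaks, and 4 (2 and 7) for all peaks with Smad3. A total of 48 members (15.7%) had no peak of the Smad3, TTF-1 or A549 lists within 100 kb. Smad4 peaks with Smad3 cannot be in this count, since they overlap a Smad3 peak, so it has no background share here.

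Members were also less often near another Smad4 peak. Of the 306, 58 (19.0%, 14.7 to 23.8) had another Smad4 siTTF-1 peak within 100 kb, against 436 (33.6%, 31.0 to 36.2) of the peaks with Smad3 and 30.8% of all Smad4 peaks. With a two-sided Fisher's exact test, the odds ratio came to 0.463 (0.340 to 0.630, adjusted p = 3.54e-07). Among the first 802 Smad4 peaks alone it was 0.556 (0.305 to 1.01) and did not pass the exact test (adjusted p = 0.064). Next to each other lay 4 members in 2 pairs. These were the only members (1.31%) with another Smad4 peak within 1 kb, against 32 of the peaks with Smad3 (2.46%). Numbers 313 and 432 on chromosome 5 (1380751 to 1381099 and 1381151 to 1381399) were 51 bp apart. Numbers 577 and 1145 on chromosome 3 (197076451 to 197076899 and 197075901 to 197076199) were 251 bp apart.

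Most members were the only member in their window of 1 Mb. They fell into 280 such windows, of which 258 held 1 member, 18 held 2 and 4 held 3. Windows were not counted in this way for other Smad4 peaks, so these numbers have no background. The 4 windows with 3 members were 191000001 to 192000000 and 197000001 to 198000000 on chromosome 3, 167000001 to 168000000 on chromosome 4 and 54000001 to 55000000 on chromosome 6. None of these 4 windows, which were picked for holding the most members, held a Smad4 peak with Smad3. How many of all 1 Mb windows hold no such peak was not counted, so this absence has no background either.

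To ask whether members lie near centromeres without an hg18 annotation, the longest stretch of each chromosome without a TTF-1 or A549 peak was used as a stand-in. These stretches ran from 2.47 Mb on chromosome 12 to 31.6 Mb on chromosome 9, and lie at the known centromere or short arm on most chromosomes, but not on 2, 4, 10, 17, 18 and X. Within 5 Mb of them lay 18 members (5.88%, 3.52 to 9.14) and 81 peaks with Smad3 (6.24%, 4.98 to 7.69), with 6.17% of all Smad4 peaks as background. By the two-sided Fisher's exact test the classes could not be told apart (adjusted p = 0.90), with an odds ratio of 0.940 and an interval of 0.555 to 1.59. Without those 6 chromosomes, a setting added once the values were known, the ratio was 1.32 (0.749 to 2.32, adjusted p = 0.35 by the same exact test). Chromosome Y was kept there, although its stretch, from 1 to 6677150, lies on the short arm and does not reach the centromere.

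Inside the stretches lay 2 members, numbers 524 and 881, and none of the peaks with Smad3. Both are on chromosome 9 in the stretch from 38677650 to 70274100, and both are among the farthest from Smad3. The next nearest was number 884 (chromosome 3, 95427751 to 95427999), 0.198 Mb from the stretch. Of all stretches of at least 2 Mb, wherever they lie, 9 members were inside (2.94%), against 1 of the 390 peaks with Smad3 in siTTF-1 cells alone (0.26%) and 2 of all 1299 with Smad3 (0.15%). A Smad4 peak with a TTF-1 or A549 peak cannot lie inside such a stretch, so this difference follows in part from the overlaps given above and was not tested.

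By chromosome, no share of Smad4 peaks without Smad3 passed the test against the other chromosomes; over the whole list the share was 19.1%. Chromosome 3 had 32 members among 106 Smad4 peaks (30.2%, 21.65 to 39.9) and held 10.5% of the members against 5.70% of the peaks with Smad3. The odds ratio was 1.93 (1.25 to 2.99), which did not pass after adjustment over 24 chromosomes (Fisher's exact test, two-sided, adjusted p = 0.11). With that test 0 chromosomes passed, and 1, chromosome 3, had an unadjusted p under 0.05. Chromosome 21 had the lowest share, 1 of 22 (4.55%, 0.12 to 22.8). The only Smad4 peak on chromosome Y, number 1181 (10645351 to 10645649), was a member, 401 bp from a Smad3 siTTF-1 peak. It also lay 401 bp from a TTF-1 0 h peak and 201 bp from a TTF-1 1.5 h peak.

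**Figure D5:**
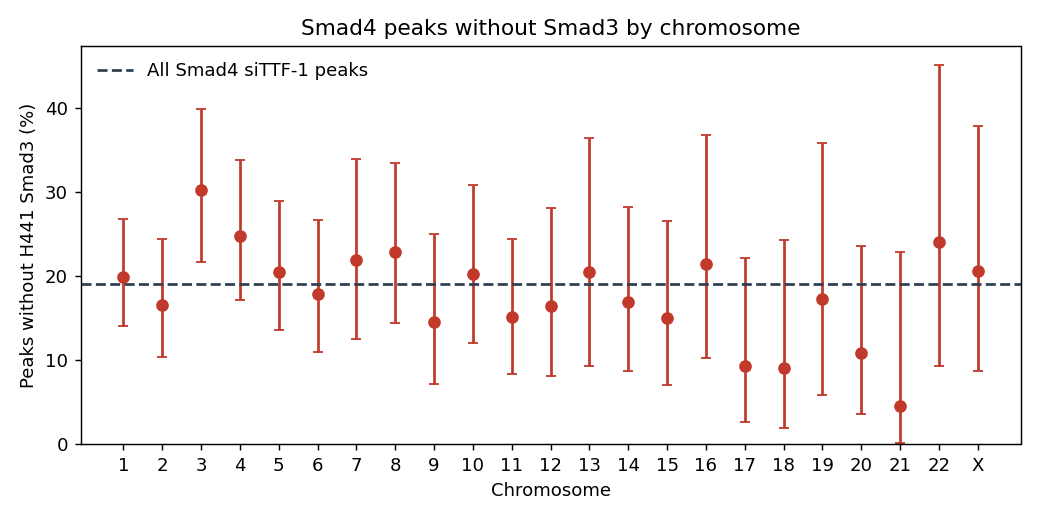
Share of the Smad4 siTTF-1 peaks of each chromosome that have no H441 Smad3 peak (y axis, percent; x axis, chromosome); error bars are exact 95% binomial intervals and the dashed line is the whole list, at 19.1%. Chromosome Y, with 1 Smad4 peak, is left out, and the interval of chromosome 3, from 21.65% to 39.9%, lies above the line.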

How the data were processed

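Peak lists of 7 libraries were used, 1 library per group. Builds are given as hg18 in the submitters' processing notes. The false discovery rate limits and inputs are given per the labels. Aligner and peak caller are named neither in the labels nor in the files. The deposited score was 1000 for every peak and was not used. The deposited peak number, the other measure in the lists, is taken as it stands, and its meaning is not stated. The authors' 3 lists of Smad3 subsets were not used, and 1 track line was skipped. Starts were raised by 1.

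Overlap meant at least 1 shared bp. Distances are bases between edges. Shares have exact Clopper-Pearson intervals. Classes were compared with Fisher's exact test, with Benjamini-Hochberg adjustment over 8 comparisons at 0.05. The named peaks are the 5 with the lowest number, the 3 widest, the 3 nearest to and farthest from Smad3, the 3 nearest to a peak-free stretch, those with both TTF-1 lists and A549, and the 1 Mb windows with most members. The pairs, the peaks over 1 Mb from Smad3, the other A549 peaks and chromosomes 3, 21 and Y were picked after their values were seen. The members and comparisons were chosen with earlier results of these data known, among them the TTF-1 0 h shares.

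Python 3.11.15, NumPy 2.4.6, pandas 2.3.3, SciPy 1.17.1, statsmodels 0.14.6 and matplotlib 3.10.9 were used. Overlap counts were checked against bedtools on the peak lists, and stratified ratios were tested on simulated data.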

Additional observations from a re-analysis of the deposited data

How the results depend on the processing

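Under the alternatives tried, the lower odds of overlap with the TTF-1 and A549 lists kept their direction and their side of the threshold in 12 of 12 settings each, with odds ratios of 0.047 to 0.270 for TTF-1 0 h, 0.036 to 0.268 for TTF-1 1.5 h and 0.111 to 0.310 for A549. So did the late peak number in 6 settings (0.181 to 0.367), the small width in 7 (0.129 to 0.237) and the rarer TTF-1 peak within 100 kb in 10 (0.163 to 0.486), 1 of them, without overlapping TTF-1 peaks (0.314), chosen after seeing the data. The settings were other overlap rules, shortened lists, members at least 10 kb from Smad3, absence from the siTTF-1 list alone, the 390 peaks as comparison, the first 802 peaks, autosomes, strata of number or width, and omission of peaks near the stretches. The presence of another Smad4 peak within 100 kb lost its call among the first 802 peaks. Fewer peaks were tested there, and the ratio was 0.556 against 0.463 over the whole list. Why the call was lost was not tested. For closeness to the peak-free stretch, never past the threshold, the direction turned to 1.03 within strata of peak number and to 1.32 without 6 chromosomes, a setting also chosen after seeing the data, and the cause was not tested. With every stretch of at least 2 Mb, another added setting, the ratio was 0.864. The median distance to Smad3 was 65.0 kb with the siTTF-1 list alone. Peaks moved by 10 and 100 kb had medians of 56.7 and 61.9 kb. A setting that fixes the compared feature itself gave no value. No paired analysis was possible because each group has 1 library. For the same reason no library could be left out, and depth is unknown.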
